A study of Mus musculus with 6 samples.

Results

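The genes described here are the axon guidance ligands and receptors of the mouse hippocampus: ephrins and Eph receptors, semaphorins with plexins and neuropilins, Slits and Robos, and netrins with Dcc and the Unc5 receptors. They were found by gene symbol, a rule that uses no measured value, and 75 of the 32201 genes in the deposited table matched. Of these, Unc50, Unc5cl, Plxna4os1 and Plxna4os2 match by name but are not guidance ligands or receptors, which leaves 71 members, 37 ligands and 34 receptors. RNA was sequenced from the hippocampus of male C57BL/6N mice, an inbred strain, at 8 weeks of age. One group (3 libraries) received baicalin, 20 mg/kg, and the other (3 libraries) received saline; all of these mice had gone through chronic unpredictable mild stress, in which varied mild stressors are applied over time as a rodent model of depression. Baicalin is a flavone glucuronide of the herb Scutellaria baicalensis. Unstressed mice are not analysed here, and the labels do not tie each library to its own animal, so the p-values here reflect library-to-library spread only.

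Guidance ligands are secreted or held on the cell surface and steer growing axons by attraction or repulsion through receptors that act on the actin cytoskeleton. In the adult hippocampus the same families are known for roles at dendritic spines and in synaptic plasticity, and during development semaphorins and plexins help place mossy fibres in their layer. Ephrins bind Eph receptor tyrosine kinases, semaphorins bind plexins, in part with neuropilins as co-receptors, Slits bind Robos, and netrins bind Dcc and Unc5 receptors.

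Library totals were 61303274 to 64983755 counts with baicalin and 65989141 to 67957752 with saline. Hippocampal marker genes were present in each library: Prox1, a transcription factor of dentate granule cells, averaged 11.2 ± 0.431 FPKM with baicalin and 10.7 ± 2.47 FPKM with saline, and Neurod6, of pyramidal neurons, averaged 127 ± 9.59 FPKM with baicalin and 147 ± 6.39 FPKM with saline (means with SD over 3 libraries per group, as below). FPKM, a fragment count scaled by transcript length and by library size, is one of the units the authors deposited. Marker sums of some cell types differed between libraries. The 7 CA1 pyramidal markers summed to 134 to 157 FPKM with baicalin and 163 to 170.3 FPKM with saline, without overlap, while the 8 dentate granule markers summed to 82.9 to 85.1 FPKM with baicalin and 53.9 to 86.7 FPKM with saline, the lowest being saline library 2. The sum of the 8 CA3 and CA2 pyramidal markers ran the other way from CA1, with 184 to 202 FPKM with baicalin and 159 to 181 FPKM with saline, without overlap. Their median log2 change (baicalin minus saline) was only -0.01, against -0.27 for the CA1 markers. Their mean log2 deviations from the 6-library mean overlapped, at 0.03, -0.03 and 0.04 with baicalin and -0.05, -0.02 and 0.02 with saline. The 5 choroid plexus markers summed to 19.7 to 65.2 FPKM with baicalin, highest in library 2, and 11.3 to 37.6 FPKM with saline. In tissue RNA, fewer cells of a type and less RNA per cell cannot be told apart.

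The levels of the members spanned a wide range. The 12 members with a mean of at least 10 FPKM held 65.9% of the FPKM summed over all 71. Highest in the mean over all 6 libraries was Sema7a, a membrane-anchored semaphorin, at 43.8 ± 1.85 FPKM with baicalin and 45.3 ± 1.81 FPKM with saline. Efnb3, a transmembrane ephrin, averaged 45.3 ± 2.97 FPKM with baicalin and 41.3 ± 1.63 FPKM with saline. Epha4, a receptor that binds both ephrin classes, averaged 39.2 ± 2.86 FPKM with baicalin and 43.5 ± 1.89 FPKM with saline, and Slit1, a secreted Robo ligand, averaged 36.7 ± 1.31 FPKM with baicalin and 37.7 ± 0.537 FPKM with saline. Sema7a and Efnb3 overlapped among the baicalin libraries, whereas each saline library had more Sema7a than Efnb3. Efna3, Sema6b, Unc5a, Plxna1, Ephb6, Epha7, Plxna4 and Sema4f made up the rest of the 12. At the other end, 14 members had a mean below 1 FPKM and were not tested: Efna4, Efna5, Epha1, Epha2, Epha8, Ephb4, Sema3a, Sema3b, Sema3d, Sema3f, Robo4, Ntn1, Ntn3 and Dcc.

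**Figure D1:**
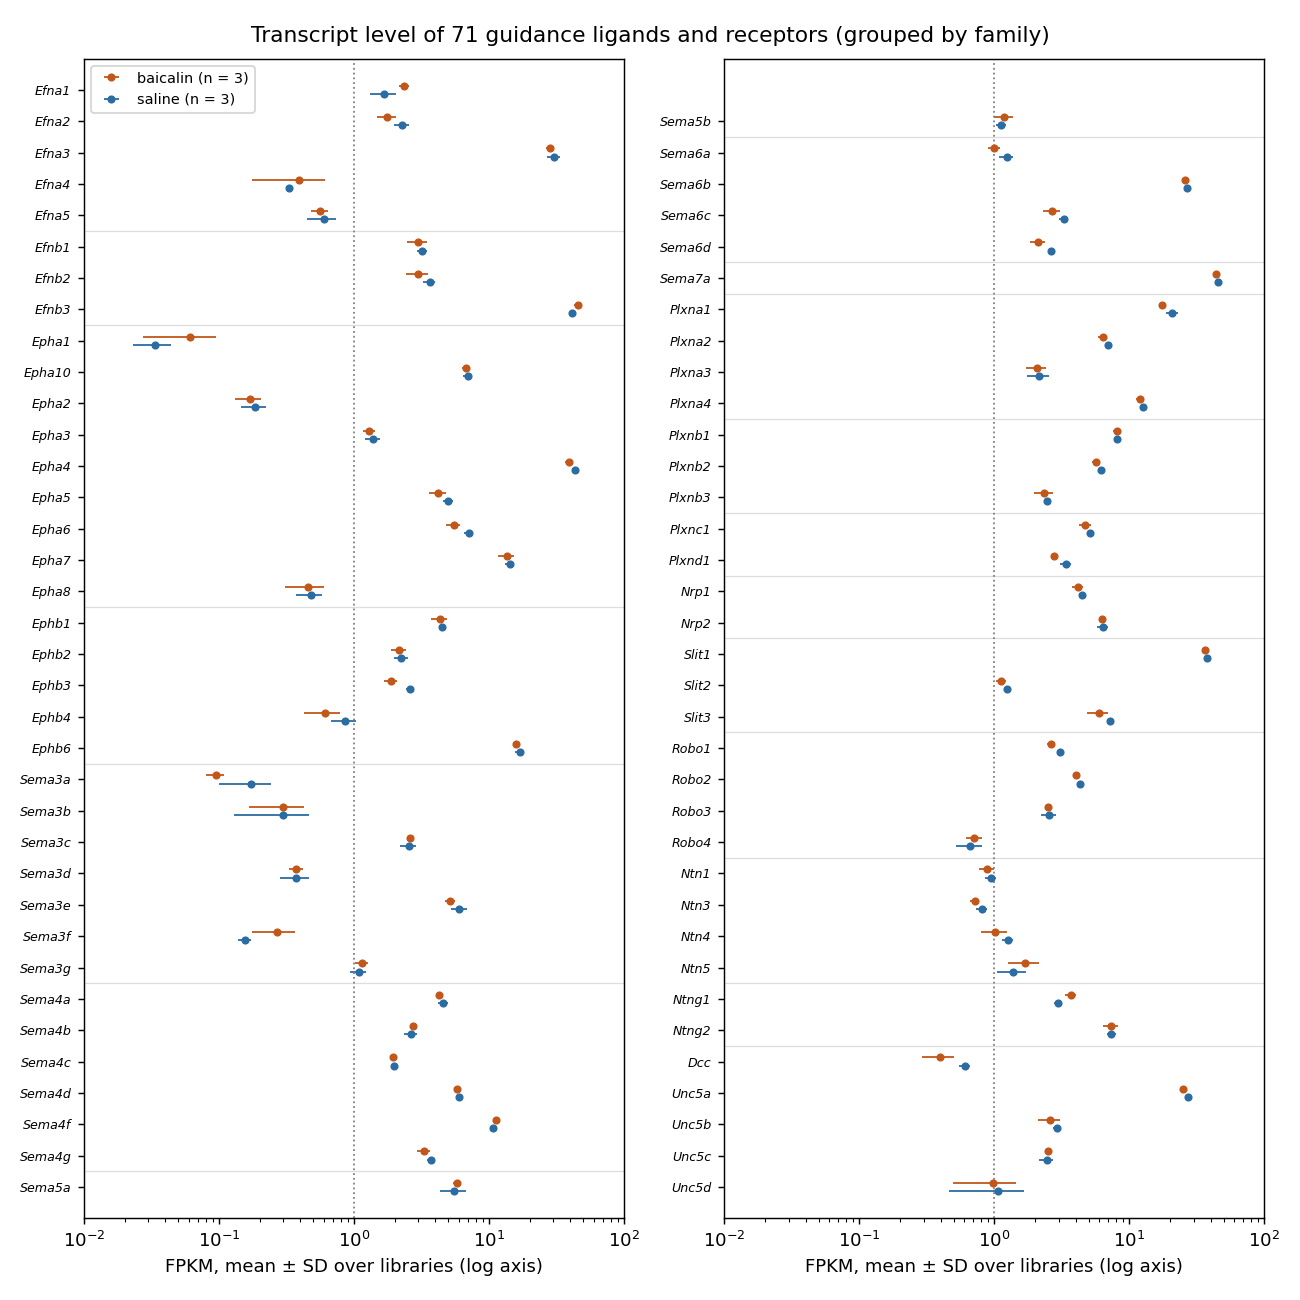
Mean FPKM of each of the 71 members, in 2 columns ordered by family, on a log axis; points are the mean of 3 baicalin or 3 saline libraries and bars the SD. Sema7a, Efnb3, Epha4 and Slit1 stand highest, and the 14 members whose mean over all libraries is left of the dotted line at 1 FPKM were not tested.

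Replicates differed little for most members. Over the members tested, the median coefficient of variation was 8.08% among baicalin libraries and 7.74% among saline libraries. Unc5d, a netrin receptor of the Unc5 family, varied most among them, with 15.9, 9.06 and 5.96 CPM (counts scaled to library size by TMM) in the baicalin libraries and 15.7, 13.8 and 3.99 CPM in the saline libraries. Its spread within each group exceeded the difference between them, a log2 change of -0.12 ± 0.55 (SE), baicalin minus saline as throughout.

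No member passed the adjusted threshold of 0.05 in edgeR's quasi-likelihood test, where 6 of the 13153 genes tested did (0.0456%). Of the 57 members tested, 9 had an unadjusted p under 0.05 (15.8%), against 11.8% of all genes. Ephb3, Robo1, Epha6, Plxnd1, Plxna1 and Sema6d were the 6 with lower values (5.46% of all genes were), and Ntng1, Efna1 and Efnb3 were the 3 with higher values (6.34% of all genes were). DESeq2, run as an alternative, called 1 member, Ephb3, with an adjusted p of 0.0133. The log2 change was negative for 45 of 57 members (78.9%), and positive for 12, against 50.2% and 49.8% of all genes, and its median was -0.09, against -0.00062 over all genes. The libraries of the 2 groups did not overlap for 13 members (22.8%; 19.4% of all genes), 10 of them lower (9.52% of all genes) and 3 higher (9.93% of all genes). Summed over the 71 members, FPKM was 475 ± 8.41 with baicalin and 499.6 ± 6.05 with saline, while the sum over all genes was 326868 ± 11332 with baicalin and 310941 ± 2284 with saline.

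Receptors and ligands were also counted apart. Of 28 receptors tested, 26 had a negative log2 change (92.9%, median -0.09). At an unadjusted p under 0.05, 5 receptors (17.9%) had lower values and no receptor had a higher value. Of 29 ligands tested, 19 had a negative log2 change (65.5%, median -0.04). At that p, 1 ligand (3.45%) had a lower value and 3 (10.3%) had higher values. Of all genes, 50.2% were negative, and at that p 5.46% were lower and 6.34% higher. The difference between receptors and ligands was not tested.

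**Figure D2:**
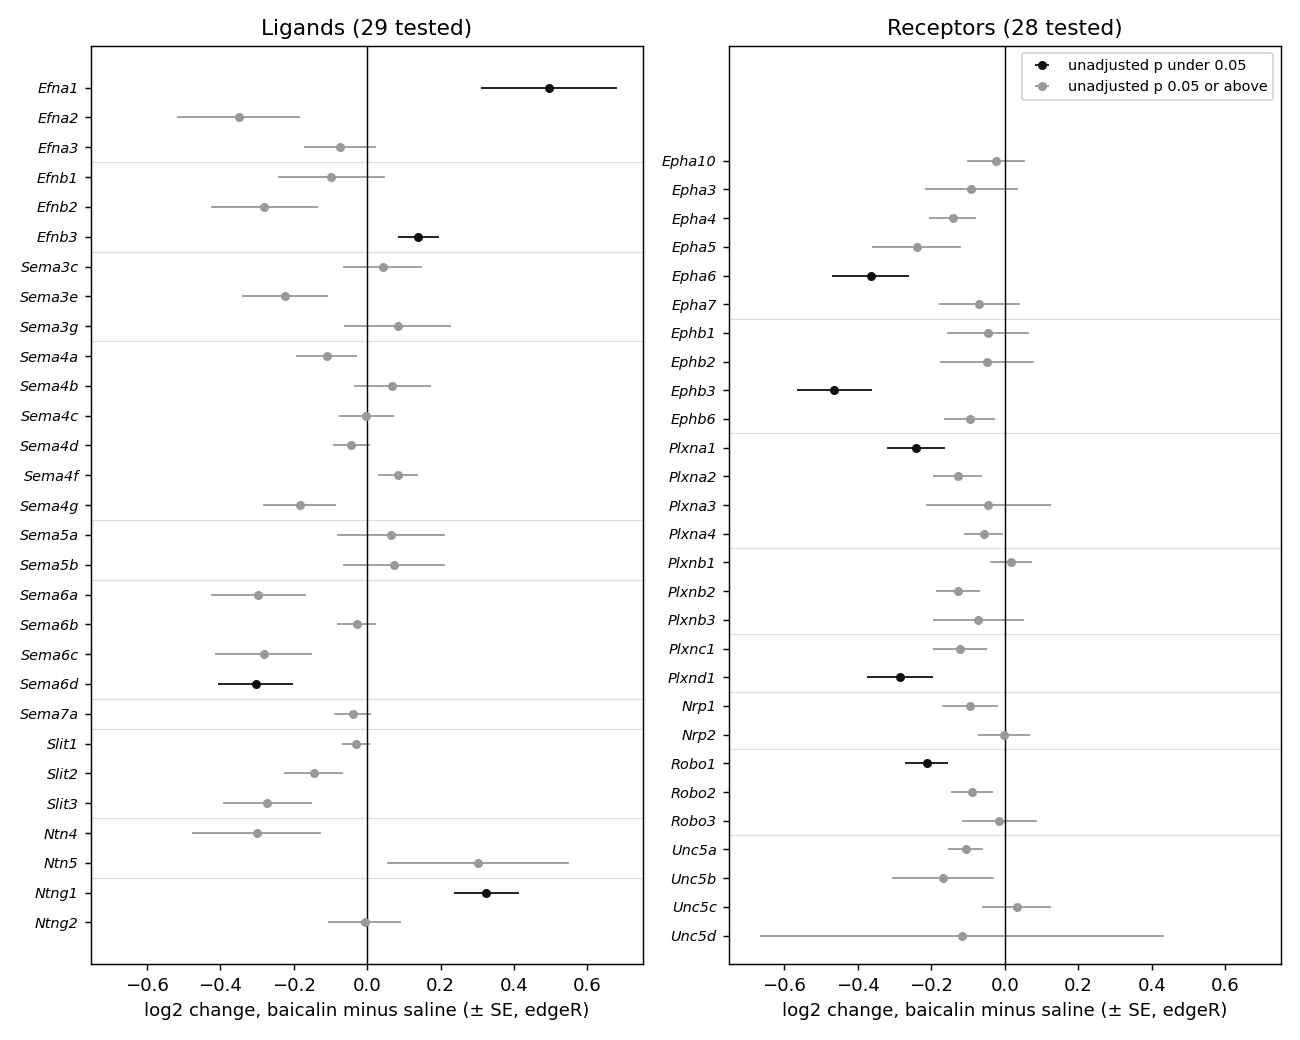
Log2 change of each of the 57 tested members, baicalin minus saline, with its standard error as a bar, ligands and receptors in separate panels. Points of 26 of 28 receptors and 19 of 29 ligands lie left of 0, and dark points mark an unadjusted p under 0.05.

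Transcript length went with the size and sign of the changes over all genes. Over 5 bins of exon length with equal numbers of genes, the all-gene median log2 change was 0.11, 0.03, -0.0019, -0.03 and -0.07 from the shortest to the longest bin. Guidance genes are long: the members tested had a median exon length of 7140 bp, ligands 5645 bp and receptors 8520.5 bp, against 4097.5 bp for all genes. The longest bin held 27 members, of which 23 were negative with a median of -0.12. Of all genes in that bin, 72.2% were negative and 13.2% had lower values at an unadjusted p under 0.05. The other bins held 1, 5, 8 and 16 members, too few to read singly. The trend was also removed from each library, with length taken as implied by each gene's deposited count and FPKM. The median then became -0.02 for members and 0.01 for all genes, and 31 of 57 members were negative (54.4%), against 46% of all genes. Receptors were then negative in 17 of 28 cases and ligands in 14 of 29. At an unadjusted p under 0.05, Ephb3, Epha6 and Sema6d then had lower values (5.26% of members, 3.42% of all genes) and Ntng1 and Efna1 higher values (3.51% of members, 5.95% of all genes).

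**Figure D3:**
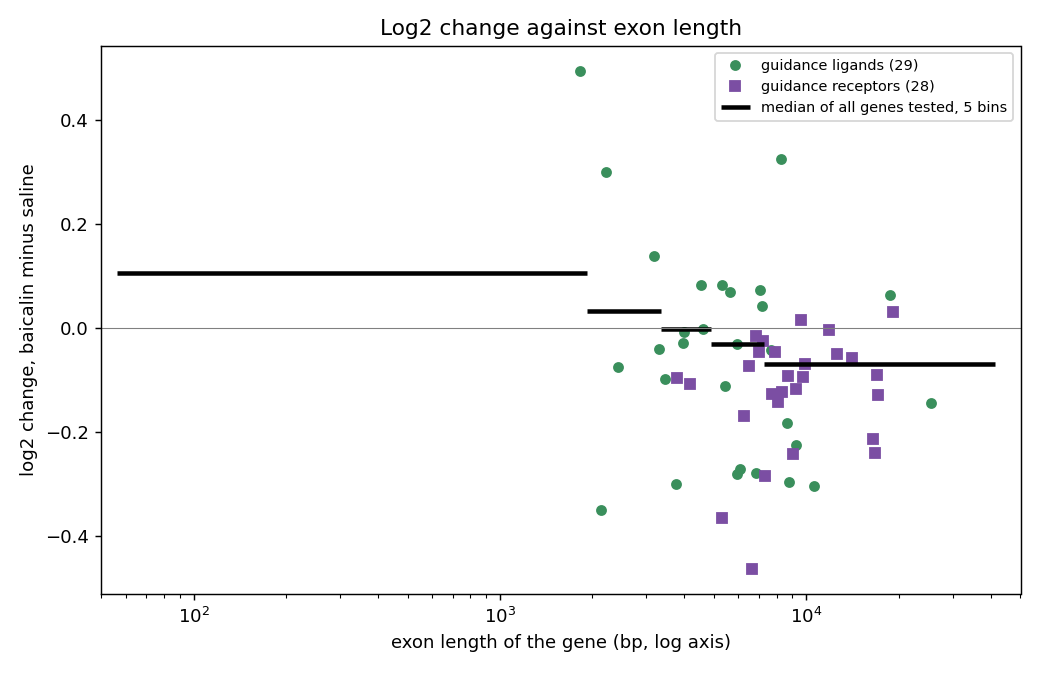
Log2 change, baicalin minus saline, against exon length in bp on a log axis, with ligands as circles, receptors as squares and the all-gene median of each of 5 length bins as a horizontal line. The all-gene median is 0.11 for the shortest genes and -0.07 for the longest, where 27 of the 57 members lie.

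The scaling of the libraries also moved the split. With libraries scaled to an equal sum of reads per length, the all-gene median was -0.08, and 331 genes had higher and 1562 lower values at an unadjusted p under 0.05, so that 17.5% of them were higher, against 53.7% with TMM. Under it 0 members had higher values (2.52% of all genes) and 19 had lower values (33.3% of members, 11.9% of all genes) at that p, 50 of 57 were negative, and the members' median was -0.17.

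Among Eph receptors, kinases that signal at cell contacts, Ephb3 (ENSMUSG00000005958, chr16:21204755-21223304 on mm10, + strand) had the smallest p of all members. It gave 15.9, 13.8 and 13.03 CPM with baicalin, against 21.03, 18.9 and 19.1 CPM with saline. Each baicalin library was below each saline library. This gave a log2 change of -0.46 ± 0.10 (SE; edgeR adjusted p = 0.310), and it ranged from -0.55 to -0.40 when single libraries were left out. It was -0.42 with the length trend removed and -0.54 with libraries scaled to equal reads per length. No other gene overlaps Ephb3 on the opposite strand.

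The 300 bases around the start sites of Ephb3, Ntng1 and Epha6 are shown because these members had among the smallest p in each direction and a RefSeq start near the start in the deposited table. The sequences are from RefSeq on GRCm38.p6, and the 50 capitals mark the first bases from the RefSeq start. Ephb3 is at chr16:21204545-21204844 on the + strand, with 66.7% GC and 23 CpG dinucleotides. Its RefSeq start is 40 bp downstream of the deposited start. Ntng1 is at chr3:110143423-110143722 on the - strand, with 59.7% GC and 28 CpG. Its RefSeq start is 539 bp downstream of the deposited start, so the whole window, lowercase part included, lies within the deposited gene. Epha6 is at chr16:60605482-60605781 on the - strand, with 60.3% GC and 15 CpG. Its RefSeq start is 283 bp upstream of the deposited start.
Ephb3: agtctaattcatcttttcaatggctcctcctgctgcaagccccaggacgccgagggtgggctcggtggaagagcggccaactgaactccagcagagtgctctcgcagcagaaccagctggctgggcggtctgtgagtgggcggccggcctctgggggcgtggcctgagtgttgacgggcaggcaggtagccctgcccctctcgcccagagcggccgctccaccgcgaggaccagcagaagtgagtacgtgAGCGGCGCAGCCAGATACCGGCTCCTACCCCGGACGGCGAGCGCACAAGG
Ntng1: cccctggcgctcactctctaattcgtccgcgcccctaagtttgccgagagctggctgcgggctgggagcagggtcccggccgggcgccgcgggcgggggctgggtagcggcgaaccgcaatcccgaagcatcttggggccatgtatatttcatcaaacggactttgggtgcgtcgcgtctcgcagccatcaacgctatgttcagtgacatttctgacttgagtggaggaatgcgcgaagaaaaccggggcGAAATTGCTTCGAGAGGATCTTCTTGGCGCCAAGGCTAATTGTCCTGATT
Epha6: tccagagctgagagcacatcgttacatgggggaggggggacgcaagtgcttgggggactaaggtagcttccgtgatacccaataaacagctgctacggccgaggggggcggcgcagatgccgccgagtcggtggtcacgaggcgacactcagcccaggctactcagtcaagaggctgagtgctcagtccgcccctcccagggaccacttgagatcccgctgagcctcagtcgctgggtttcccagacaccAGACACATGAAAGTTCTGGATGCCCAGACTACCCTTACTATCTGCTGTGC
Over the 32851 RefSeq promoters of this length, the median was 52.7% GC and 7 CpG, so all 3 windows are above the median in both. Searched on both strands, none of the 3 windows held the cAMP response element TGACGTCA (found in 1.79% of all windows), the E-box CACGTG (7.15%), the EGR site GCGTGGGCG (0.612%), the glucocorticoid half-site AGAACA (19%) or the TATA letters TATAAA (13.6%). A missing match says only that these letters are not in the window. A RefSeq promoter was matched for 61 of the 71 members.

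Epha6 (ENSMUSG00000055540, chr16:59653483-60605248, - strand), a receptor for GPI-anchored ephrins, gave 37.7, 29.9 and 31.8 CPM with baicalin and 41.0, 46.5 and 40.6 CPM with saline. Every baicalin library lay below every saline library, the nearest being baicalin 1 and saline 3. In edgeR the log2 change was -0.37 ± 0.10 (SE; edgeR adjusted p = 0.344). Its gene is overlapped on the opposite strand by Gm9017, listed at a mean of 0.307 FPKM, and the strand setting of the counting is not known from the sources used here. Epha4, the most abundant Eph receptor, gave 390.1, 337 and 356 CPM with baicalin and 379, 401 and 414 CPM with saline. Baicalin library 1 lay above saline library 1, so the groups overlapped (log2 change -0.14 ± 0.06 SE; edgeR adjusted p = 0.445).

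Ephb6, a receptor without kinase activity, was the most abundant EphB gene, with 69.1, 69.5 and 66.1 CPM with baicalin and 69.8, 79.8 and 69.1 CPM with saline. Only saline library 2 stood clear of the rest. All 6 EphA and 4 EphB receptors tested had a negative log2 change, from -0.46 for Ephb3 to -0.03 for Epha10. With the length trend removed, Epha7, Epha10, Ephb1 and Ephb2 were positive, which left 4 of 6 and 2 of 4 negative. The CA1 marker sums given above were lower with baicalin as well. The CA3 and CA2 sums were higher, though the median log2 change of that list was -0.01. The part of these cell types in the values of these receptors was not tested.

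Their ligands, the ephrins, differed in sign. Efna1, a GPI-anchored ephrin, gave 4.45, 4.93 and 5.40 CPM with baicalin and 4.37, 3.22 and 2.90 CPM with saline. The groups did not overlap, but baicalin 1 and saline 1 nearly met. Its log2 change was 0.50 ± 0.18 (SE; edgeR adjusted p = 0.396), with 0.38 to 0.69 when single libraries were left out. Efnb3 gave 157, 175 and 162 CPM with baicalin and 156, 149 and 144 CPM with saline. Here too the lowest baicalin and the highest saline library were close, and the log2 change was 0.14 ± 0.06 (SE; edgeR adjusted p = 0.415), or 0.06 with libraries scaled to equal reads per length. Efna3, the most abundant ephrin-A, gave 79.9, 73.0 and 85.1 CPM with baicalin and 90.3, 87.6 and 72.5 CPM with saline, and the groups overlapped. The remaining ephrins tested, Efna2, Efnb1 and Efnb2, had log2 changes of -0.35, -0.10 and -0.28.

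In the semaphorin system, the receptors Plxnd1 and Plxna1 had the smallest p. Plxnd1, the receptor for Sema3e, gave 23.6, 21.8 and 24.3 CPM with baicalin and 28.05, 31.2 and 25.7 CPM with saline. Plxna1, a signalling partner of neuropilins and a receptor for class 6 semaphorins, gave 176, 183 and 185 CPM with baicalin and 211, 239 and 193 CPM with saline. In both genes saline library 2 was highest and saline library 3 was nearest to the baicalin libraries, without overlap. The log2 change was -0.29 ± 0.09 for Plxnd1 (SE; edgeR adjusted p = 0.360) and -0.24 ± 0.08 for Plxna1 (edgeR adjusted p = 0.366). Plxna1 is overlapped on the opposite strand by Gm26811, listed at a mean of 0.601 FPKM.

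The other plexins and the neuropilins were closer between groups. Plxnb1, a receptor for class 4 semaphorins and the most abundant plexin-B gene, gave 86.5, 96.1 and 85.4 CPM with baicalin and 89.1, 87.7 and 88.0 CPM with saline. Plxnc1, the receptor for Sema7a, gave 42.4, 49.5 and 43.3 CPM with baicalin and 49.4, 48.6 and 49.1 CPM with saline. Nrp2, which binds class 3 semaphorins, gave 85.2, 86.9 and 83.9 CPM with baicalin and 86.0, 77.7 and 92.8 CPM with saline. The groups overlapped in all 3 genes. Of the 4 plexin-A genes all were negative, with Plxna3 and Plxna4 at -0.05 and -0.06, and 2 of 4 were with the length trend removed.

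Among semaphorins, class 6, transmembrane ligands of plexin-A receptors, was negative in all 4 members. Sema6d gave 26.2, 28.2 and 22.1 CPM with baicalin and 29.8, 33.0 and 31.5 CPM with saline, without overlap, a log2 change of -0.30 ± 0.10 (SE; edgeR adjusted p = 0.381). Sema6a gave 8.95, 10.2 and 11.1 CPM with baicalin and 10.6, 13.5 and 13.1 CPM with saline, where baicalin 3 exceeded saline 1 (log2 change -0.30 ± 0.13 SE; edgeR adjusted p = 0.440). Sema6c had a log2 change of -0.28 ± 0.13 (SE). Sema6b, the most abundant of the class, gave 114, 121 and 119.7 CPM with baicalin and 119.8, 128 and 114 CPM with saline, with overlap, and its log2 change of -0.03 became 0.01 without saline library 2. The 4 genes were negative under each scaling and with the length trend removed.

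Sema7a, the highest member by FPKM over all 6 libraries, though below Efnb3 in the mean of the baicalin libraries, gave 173, 159 and 164 CPM with baicalin and 165, 168 and 177 CPM with saline. Sema3e, a secreted ligand of Plxnd1 and the most abundant class 3 gene, gave 59.7, 50.5 and 53.9 CPM with baicalin and 54.6, 72.7 and 64.2 CPM with saline. Sema4f gave 65.6, 68.7 and 71.1 CPM with baicalin and 62.9, 66.8 and 64.2 CPM with saline. The groups overlapped in all 3. No class 3, 4, 5 or 7 semaphorin averaging 1 FPKM or more had an unadjusted p under 0.05 in edgeR. Sema3a and Sema3f, below that filter, are described further on. Sema5a gave 127, 127 and 116 CPM with baicalin and 116, 93.8 and 144 CPM with saline, so its saline libraries spanned the baicalin ones. Saline library 2, the lowest for Sema5a, was also the one with the lowest dentate granule marker sum, whose part in this value was not tested.

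**Figure D4:**
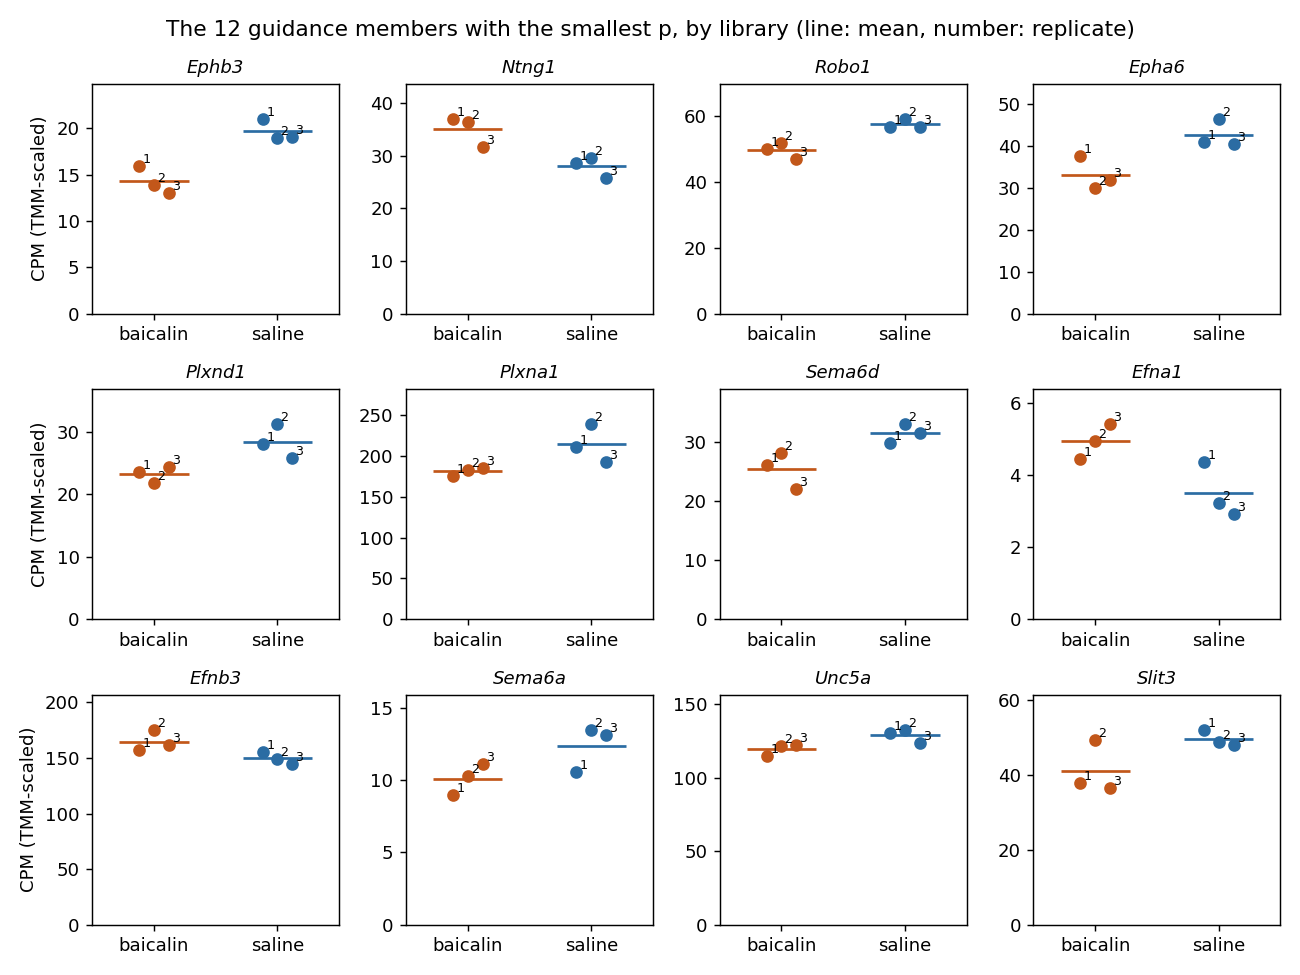
TMM-scaled CPM of the 12 members with the smallest p, 1 point per library with its replicate number and a line at the group mean, baicalin left and saline right, on axes that start at 0. Ephb3, Epha6, Robo1, Plxnd1, Plxna1, Sema6d and Unc5a show 3 baicalin libraries below 3 saline libraries. Ntng1, Efna1 and Efnb3 show the reverse, and Sema6a and Slit3 overlap. Of all genes tested, 19.4% did not overlap.

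In the Slit and Robo system, Robo1 (ENSMUSG00000022883, chr16:72308306-73046095, + strand), a Slit receptor with immunoglobulin domains, gave 49.99, 51.6 and 46.8 CPM with baicalin and 56.5, 59.0 and 56.5 CPM with saline. The groups were separate and the saline libraries close together. For Robo1 the log2 change was -0.21 ± 0.06 (SE; edgeR adjusted p = 0.335), and -0.10 with the length trend removed. Robo2 gave 80.2, 74.6 and 81.7 CPM with baicalin and 80.6, 83.9 and 87.2 CPM with saline, with overlap. Its log2 change of -0.09 was 0.03 with the length trend removed.

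Of the Slits, Slit1 gave 244, 256 and 246 CPM with baicalin and 250.1, 254 and 257 CPM with saline, a log2 change of -0.03 ± 0.04 (SE). Slit3 gave 37.8, 49.3 and 36.5 CPM with baicalin and 52.1, 48.9 and 48.2 CPM with saline, where baicalin library 2 lay within the saline range (log2 change -0.27 ± 0.12 SE; edgeR adjusted p = 0.441). All 3 Slits and 3 Robos tested were negative, and 1 of 3 in each family with the length trend removed.

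In the netrin families, Ntng1 (ENSMUSG00000059857, chr3:109780040-110144011, - strand) had the smallest p. It encodes netrin-G1, a GPI-anchored relative of netrins that binds the synaptic adhesion protein NGL-1 and not Dcc. Its values were 37.0, 36.4 and 31.6 CPM with baicalin, against 28.5, 29.6 and 25.7 CPM with saline. Each baicalin library was above each saline library. Its log2 change was 0.32 ± 0.09 (SE; edgeR adjusted p = 0.331), 0.27 to 0.39 when single libraries were left out, 0.39 with the length trend removed and 0.25 with libraries scaled to equal reads per length. Netrin-G1 is known from thalamocortical axons; the 5 thalamus markers summed to 9.97 to 12.1 FPKM with baicalin and 8.31 to 10.04 FPKM with saline, and the 4 cortex markers to 35.3 to 38.7 FPKM with baicalin and 30.8 to 32.3 FPKM with saline, none of them at 0. Mean log2 deviations of the thalamus list overlapped, at 0.40, 0.46 and -0.40 with baicalin and -0.41, 0.19 and -0.24 with saline. Those of the cortex list were 0.03, 0.13 and 0.15 with baicalin and -0.14, -0.11 and -0.06 with saline. The part of these markers in the Ntng1 value was not tested.

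Ntng2, its relative that binds NGL-2, gave 34.4, 36.6 and 29.4 CPM with baicalin and 36.2, 33.2 and 31.4 CPM with saline, with overlap. Ntn5, the most abundant secreted netrin by mean FPKM though not by CPM, gave 3.22, 5.39 and 4.38 CPM with baicalin. With saline it gave 4.49, 3.09 and 2.96 CPM, also with overlap. Unc5a, the most abundant netrin receptor, gave 115, 122 and 122 CPM with baicalin and 131, 133 and 124 CPM with saline. The groups were just separate, with a log2 change of -0.11 ± 0.05 (SE; edgeR adjusted p = 0.440), and Hk3, at a mean of 0.324 FPKM, overlaps it on the opposite strand.

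Among the 14 members below 1 FPKM, 13 could be fitted when the filter was lowered to a mean of 0.1 FPKM, and none was called by edgeR, with 2 lower (Dcc and Sema3a) and 1 higher (Sema3f) at an unadjusted p under 0.05. Over all genes at that filter, 4.54% were lower and 4.84% higher at that p. Dcc, the attractive netrin receptor, had 190, 308 and 200 counts with baicalin and 360, 344 and 422 counts with saline, without overlap. That corresponds to 2.95, 4.70 and 3.30 CPM with baicalin and 5.42, 5.19 and 6.18 CPM with saline, a log2 change of -0.62 ± 0.20 (SE; edgeR adjusted p = 0.474 at that filter). Sema3a, a secreted repellent, gave 1.74, 1.44 and 1.34 CPM with baicalin and 2.05, 2.10 and 3.99 CPM with saline, where saline library 3 was highest; that library also had the highest sum of meningeal fibroblast markers, 17.2 FPKM, against 9.21 to 9.93 FPKM with baicalin, and their part was not tested. Its log2 change was -0.85 ± 0.31 (SE; edgeR adjusted p = 0.497). Sema3f, a ligand of Nrp2, gave 1.88, 2.06 and 1.01 CPM with baicalin and 0.919, 1.04 and 0.894 CPM with saline, with overlap (log2 change 0.79 ± 0.31 SE; edgeR adjusted p = 0.508).

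Other genes of the pathway, co-receptors, adaptors and cytoskeletal effectors, were read from a list of 100, of which 92 were tested. The list was chosen with earlier results of these data known, so its shares are a description only. No gene of the list was called by edgeR, and 14 (15.2%) had an unadjusted p under 0.05, against 11.8% of all genes. Of these 14, 12 had lower values (5.46% of all genes) and 2 higher values (6.34%). DESeq2 called 1, Sipa1l1, with an adjusted p of 0.0431, and edgeR without baicalin library 3 called 1, the kinase Abl1, with an adjusted p of 0.0496. The smallest p belonged to Sipa1l1, a Rap GTPase-activating protein of dendritic spines, with a log2 change of -0.31 ± 0.08, and Flrt2, a transmembrane ligand of Unc5 receptors, with -0.35 ± 0.10 (SE). Dock4, a Rac activator, had -0.20 ± 0.06, Adam10, a protease that sheds ephrins, -0.17 ± 0.05, the kinase Src -0.15 ± 0.05, and the adaptor Gab1 -0.30 ± 0.10 (SE). Fyn, a Src-family kinase downstream of several guidance receptors, had 0.11 ± 0.05, and Cfl1, the actin-severing protein cofilin, 0.15 ± 0.06 (SE). The log2 change was negative for 62 of 92 (67.4%), with a median of -0.06, which was 0.0088 with the length trend removed.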

How the data were processed

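RNA-seq was analysed from 3 baicalin and 3 saline libraries. The deposited table gives each gene's whole-number count and FPKM per library; the counts are unnormalized and the FPKM values were length-scaled by the authors, per the file headers and values. The submitters' processing notes name bcl2fastq 2.0, HISAT2, StringTie, DESeq2, limma and the genome build mm10, without their roles. Sources used here do not give the strand setting. Another 12 per-sample columns matched no label and were not used. RNA had been depleted of ribosomal RNA and random-primed, per the labels' protocols.

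Counts of the 13153 genes averaging 1 FPKM or more were fitted with edgeR 4.0.16 (R 4.3.3): TMM scaling, quasi-likelihood test, Benjamini-Hochberg adjustment over all genes. Standard errors are the absolute log2 change over the square root of F. Alternatives were DESeq2 1.42.0, limma 3.58.1 on log2(FPKM + 1) and log2(FPKM + 0.1), other filters and scalings, a robust fit and a replicate block. Others were a per-library length trend removed by offsets, and leaving out each library. The trend, and the scaling to equal reads per length, used the length implied by each gene's deposited count and FPKM. Exon lengths, used for the length bins and median lengths, were from GENCODE M21. The procedure was tested on simulated counts with known changes. No 2 libraries of a group agreed within sampling noise, so none was treated as deposited again; this does not show that they are from separate animals.

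The members and lists were chosen with earlier results of these data known. Per-library values are given for the 12 members with the smallest p and the most abundant member of each family by mean FPKM. Up to 6 genes per direction are named from the pathway list. Per-library values of Unc5d, Dcc, Sema3a and Sema3f were added after they were seen.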

Additional observations from a re-analysis of the deposited data

How the results depend on the processing

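Calls depended on the tool: edgeR called 6 genes, DESeq2 218, and edgeR 2 to 39 when single libraries were left out (39 without baicalin 1, 2 without baicalin 3, 10 without saline 2, 14 without saline 3). DESeq2 called 1 member and every other setting 0. Members with higher values at an unadjusted p under 0.05 (3) numbered 0 with equal reads per length, 1 at a filter of 5 FPKM and 1 to 3 without single libraries. Members with lower values (6) numbered 19 with equal reads per length, 3 at 5 FPKM, 3 with the length trend removed and 4 to 11 without single libraries (11 without baicalin 2). The filter of 5 FPKM left 23 members and 7118 genes, of which 584 genes were higher and 448 lower at that p. Pathway genes at that p (14) numbered 23 with equal reads per length, 9 at 5 FPKM and 8 to 15 without single libraries (9 without baicalin 3, where edgeR called Abl1, and 8 without saline 2). The members' median was -0.17 with equal reads per length and -0.021 with the length trend removed; that of the pathway list was -0.13 and 0.0088. Negative receptors numbered 17 with the trend removed. Counts of receptors and ligands and of members without overlap were added after seeing the data; with equal reads per length 0 members were higher and 22 lower without overlap (38.6% of members), against 4.14% and 19.1% of all genes. The cause of these differences was not tested.

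Same-numbered libraries of the 2 groups deviated with correlations of 0.09, 0.05 and -0.02, and differently numbered ones with -0.098 to 0.055. With 3 libraries per group, such correlations cannot decide whether the numbers pair the libraries. With the replicate block edgeR called 0 genes, with 610 higher (4.64%) and 509 lower (3.87%) at an unadjusted p under 0.05. At that p 1 member (1.75%) had a higher and 8 (14%) a lower value. With the block and the length trend removed, edgeR called 0 genes, with 610 higher (4.64%) and 343 lower (2.61%) at that p. Then 1 member (1.75%) had a higher and 4 (7.02%) a lower value. Of the 92 pathway genes tested, 9 had an unadjusted p under 0.05, 2 higher and 7 lower. The medians were -0.014 for members and 0.0063 for the pathway list.

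Log2 changes near 0 changed sign for 7 named members. With equal reads per length, Sema5a was -0.010 and Plxnb1 -0.060. With upper-quartile scaling, Nrp2 was 0.0051 and Ntng2 0.0015, and with the replicate block Nrp2 was 0.00033. With the length trend removed, Nrp2 was 0.086, Slit1 0.012, Robo2 0.027 and Ntng2 0.0067, and with the block in addition they were 0.089, 0.012, 0.024 and 0.0035. Without single libraries, Sema5a ranged from -0.076 to 0.24, Sema6b from -0.066 to 0.014, Plxnb1 from -0.039 to 0.047, Nrp2 from -0.067 to 0.059 and Ntng2 from -0.077 to 0.078. The other members among the 12 with the smallest p and the most abundant of each family kept their sign under each setting run; Unc5d ranged from -0.57 to 0.21 without single libraries.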

Other observations

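Abl1, a tyrosine kinase of the pathway list chosen here after its values were seen, gave 19.8, 22.7 and 51.3 CPM with baicalin and 55.3, 57.9 and 53.9 CPM with saline. Baicalin libraries 1 and 2 were far below the other 4, while baicalin library 3 was close to the saline libraries. The log2 change was -0.83 ± 0.35 (SE; edgeR adjusted p = 0.423), with -1.39 to -0.60 when single libraries were left out, the lower end without baicalin library 3 (edgeR adjusted p = 0.0496).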
